A study of Rattus norvegicus with 18 samples.

Results

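The 109 genes described here had lower mean log2 RNA levels in beta cells of old rats than of young rats, both in cells that were copying their DNA and in cells that were not. They were chosen by the measured values themselves, from 27654 genes in the deposited tables. The group is named by this choice, since the tables identify genes by Ensembl rat ID alone and none of the IDs could be paired with a gene symbol. The data are 18 RNA sequencing libraries in 4 groups: 5 young quiescent, 4 old quiescent, 5 young replicative and 4 old replicative. Islets of every group spent a night in RPMI1640 with 10% serum and 11.1 mM glucose and received 10 micromolar EdU, a thymidine analogue that marks DNA made during the exposure. The series text gives 9 islet batches, each pooled from 2 rats and each giving 1 replicating and 1 quiescent sample. The labels and series text used here do not say what strain the rats were, how old, how cells were gated in the sort, or how many cells went into a library. The labels call the cell type pancreatic islets and the series text calls the cells beta cells; a check of either against marker genes was not made, because it needs gene names.

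Beta cells are the insulin-secreting cells of the pancreatic islet. In rodents they divide often around birth and in early life, and the dividing fraction becomes small in the adult. EdU labelling separates cells that passed through S phase from those that did not, and the ages were compared here within each of the 2 states. In bulk samples such as these, fewer cells of a type and less RNA per cell cannot be told apart.

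The choice used the deposited log2 normalized counts. A gene had to be at least 1 log2 unit lower in the mean of the old than of the young quiescent libraries, and at least 1 unit lower in the mean of the old than of the young replicative libraries. Its lowest young quiescent value had to be at least 5. Of 9142 genes past that level threshold, 129 met both age thresholds. Genes with a replicative-minus-quiescent difference of at least 3, or of at most -0.8, at both ages were then left out, which removed 20 genes, all of them lower in replicative cells. The rule also left out 4 listed IDs, of which 3 are in the tables analysed here and none met the age and level thresholds. All 109 members also passed the low-count filter used for the tests. The 3 members nearest the quiescent threshold lay at -1.0, -1.006 and -1.008 and the 3 genes just outside it at -0.994, -0.992 and -0.992. At the replicative threshold the nearest members lay at -1.03, -1.10 and -1.10 and the nearest genes outside at -0.985, -0.928 and -0.924. All 4 comparisons of groups therefore took part in the choice, and the differences below describe the members and do not test them.

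Total counts ran from 2723660 to 14222719 per library. The old replicative libraries differed most from each other, and old replicative replicate 3 stood apart from the rest. It had no read for 15.9% of the 9142 genes past the level threshold, against 0.700% to 5.48% in the other 3 old replicative libraries and 0% to 2.17% in the young replicative libraries. Results that rest on it are given with and without it.

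In young cells the median level of the members was steady. Their median level was 6.76, 6.88, 6.90, 6.55 and 6.78 log2 units in young quiescent replicates 1 to 5. It was 6.86, 7.17, 7.09, 7.07 and 7.43 in young replicative replicates 1 to 5. The medians of all 10 young libraries thus lay within 1 log2 unit of each other. Single members varied more than the genes past the level threshold. The median SD of a member was 0.46 log2 units in young quiescent and 0.72 in young replicative cells, against 0.28 and 0.49 for those genes. In old cells the members' median level was lower in each library and more variable. It was 6.01, 5.48, 5.11 and 4.98 in old quiescent replicates 1 to 4. It was 6.13, 5.64, 2.42 and 5.84 in old replicative replicates 1 to 4. No old library reached the lowest young one, although the choice of members by group means favours that order. Averaged over quiescent libraries, this median was 6.77 ± 0.139 at the young age (SD, n = 5) and 5.40 ± 0.461 at the old age (SD, n = 4). Averaged over replicative libraries, it was 7.12 ± 0.206 at the young age (SD, n = 5) and 5.01 ± 1.74 at the old age (SD, n = 4). Over the 9142 genes past the level threshold the same median stayed between 7.81 and 7.99 in all 18 libraries.

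**Figure D1:**
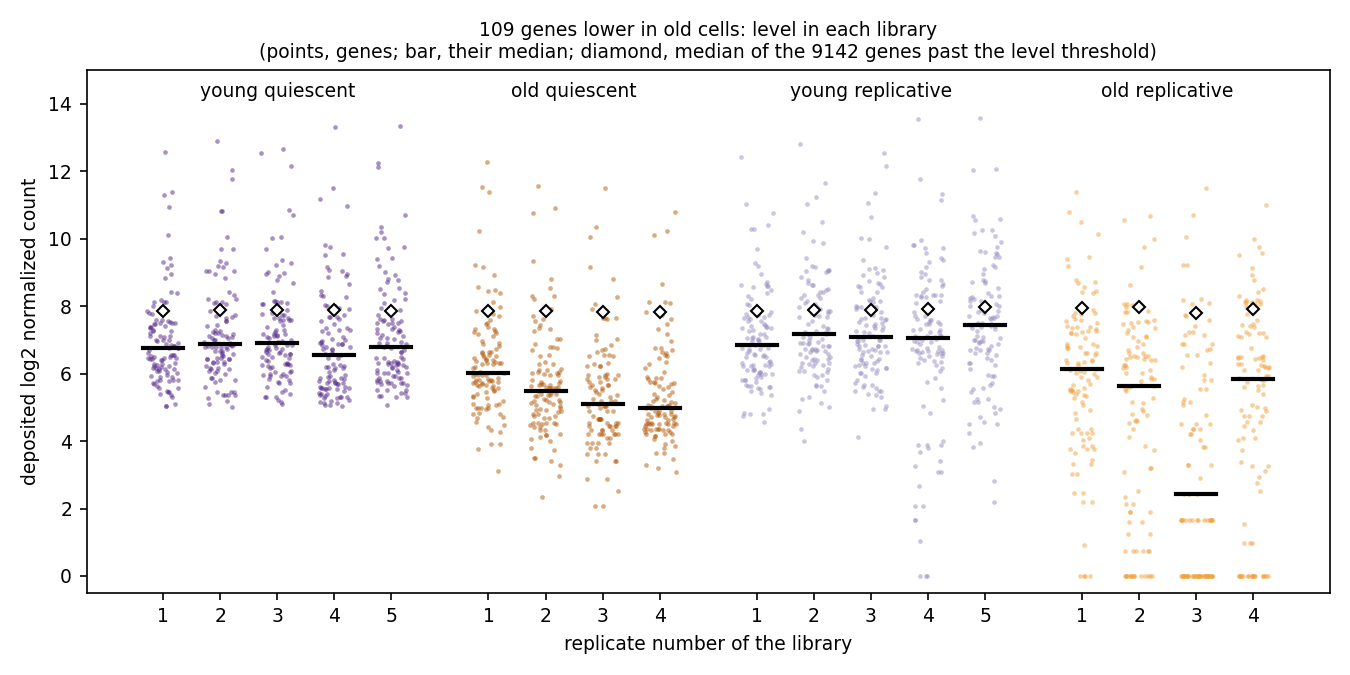
Deposited log2 normalized count (vertical axis) of each of the 109 members (points) in each library (horizontal axis, by group and replicate number), with the members' median as a bar and the median of the 9142 genes past the level threshold as a diamond. The bars sit between 6.55 and 7.43 in young libraries and between 2.42 and 6.13 in old libraries, while the diamonds stay between 7.81 and 7.99.

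The members made up a small part of the RNA. They held 0.549% ± 0.0824 of counts in young quiescent (SD, n = 5) and 0.219% ± 0.0986 in old quiescent libraries (SD, n = 4). In replicative cells they held 0.650% ± 0.103 in young (SD, n = 5) and 0.237% ± 0.0646 in old libraries (SD, n = 4). The highest old share, 0.359% in old quiescent replicate 1, was below the lowest young share, 0.445% in young quiescent replicate 1. The choice of members favours this order too. On this scale, where zeros weigh little, old replicative replicate 3 held 0.171%, against 0.217% to 0.325% in the other 3 libraries of its group. The share mostly reflects the members with the most reads, of which 1 alone had 1323 reads in that library. It says little about the other members.

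Old libraries differed in how far the members were down. Old quiescent replicate 1 was the highest of the 4 old quiescent libraries for 82 of the 109 members, and it was the highest for 34.1% of the genes past the level threshold. Old replicative replicate 1 was the highest of its group for 40 members, and for 21.1% of the genes past the level threshold. For 36 members both held at once. In old quiescent replicates 1 to 4, 34, 72, 97 and 101 members were at least 1 log2 unit below the young quiescent mean. The same held for 1.27%, 2.19%, 6.37% and 4.97% of the genes past the level threshold. Nearly all members were thus down by that much in replicates 3 and 4, and a minority in replicate 1. The choice used these values, so the counts are a description. Whether the same number marks the same islet batch in both states is not stated in the labels.

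Most members were not highly expressed. Levels here are read counts without correction for gene length, since the tables give no lengths. The mean young quiescent level ran from 5.32 to 12.96 with a median of 6.63, against a median of 7.86 for the genes past the level threshold. Of the members, 24 lay between 5 and 6, 43 between 6 and 7, 19 between 7 and 8, 19 between 8 and 10 and 4 at 10 or more. Members were 3.42% of the 702 genes past the threshold in the lowest of these ranges and 0.410% of the 975 genes in the highest. The median quiescent difference was alike across the 5 ranges, from -1.32 to -1.18. Every member had to lie at -1 or lower on this difference, so medians near that cut follow in part from the choice.

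As a difference of mean log2 values, the fall with age was larger in replicative than in quiescent cells for most members, and by edgeR folds for a smaller majority. In quiescent cells it ran from -3.67 to -1.0 with a median of -1.24, and 80 of the 109 members lay above -1.5. In replicative cells it ran from -6.12 to -1.03 with a median of -2.32, and 10 members lay at -4 or lower. The replicative difference was the larger for 93 members and the quiescent one for 16. By the edgeR log2 fold change, which compares mean counts and gives zeros less weight, the split was 60 to 49, and the median of the replicative minus the quiescent fold was -0.07. The 2 differences were within 1 log2 unit of each other for 55 members, the replicative one was larger by at least 1 unit for 53, and the quiescent one was larger by that much for 1. Without old replicative replicate 3 the replicative median was -1.85, and the replicative difference was larger by at least 1 unit for 32 members. Over all 9142 genes past the level threshold the median was -0.03 in quiescent and -0.31 in replicative cells, and -0.14 in replicative cells without that library.

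Most genes down in quiescent cells were also down in replicative cells, but few of those down in replicative cells were down in quiescent cells. Of the 9142 genes, 198 were at least 1 unit lower in old quiescent cells (2.17%) and 2527 in old replicative cells (27.6%). The 129 genes in both lists were 65.2% of the first and 5.10% of the second. In the other direction 108 genes were at least 1 unit higher in old quiescent cells and 508 in old replicative cells. The 47 in both were 43.5% and 9.25% of these lists. Because each batch gave a sample of each state, the 2 comparisons share rats even where they share no library.

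**Figure D2:**
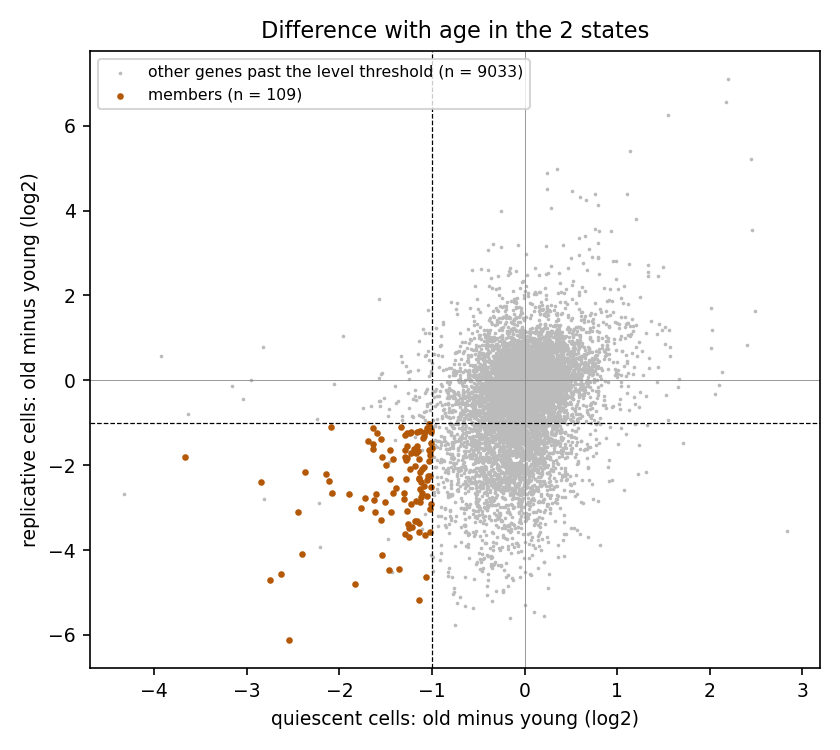
Old-minus-young difference in deposited log2 normalized counts in quiescent cells (horizontal axis) and in replicative cells (vertical axis) for the 9142 genes past the level threshold, with the 109 members coloured and the thresholds of -1 dashed. Members reach -3.67 on the horizontal and -6.12 on the vertical axis, and the vertical spread of the other genes is wider than the horizontal one.

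Absence of reads was part of the difference in old replicative cells. Of the 109 members, 4, 15, 38 and 19 had a count of 0 in old replicative replicates 1 to 4. These are 3.67%, 13.8%, 34.9% and 17.4% of members, against 0.700%, 2.25%, 15.9% and 5.48% of the 9142 genes past the level threshold. No member was at 0 in an old quiescent or a young quiescent library, and 3 were at 0 in young replicative replicate 4. The zeros were spread over genes, with 46 members at 0 in 1 old replicative library, 12 in 2, 2 in 3 and none in all 4, and 29 were at 0 in replicate 3 alone. The level threshold allows no zero in a young quiescent library, so only the other 3 groups could hold any. The choice asked for a low old replicative mean, which a zero lowers, so it favours genes with zeros there. Members also had lower young quiescent levels than the 9142 genes, with a median of 6.63 against 7.86. The shares at 0 are therefore a description. Old replicative replicates 1 to 4 had 6483890, 8639541, 2975086 and 6688155 counts, and the old quiescent libraries, without a member at 0, had 4639863 to 10365264. The part of depth and of cell number in the result was not tested.

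**Figure D3:**
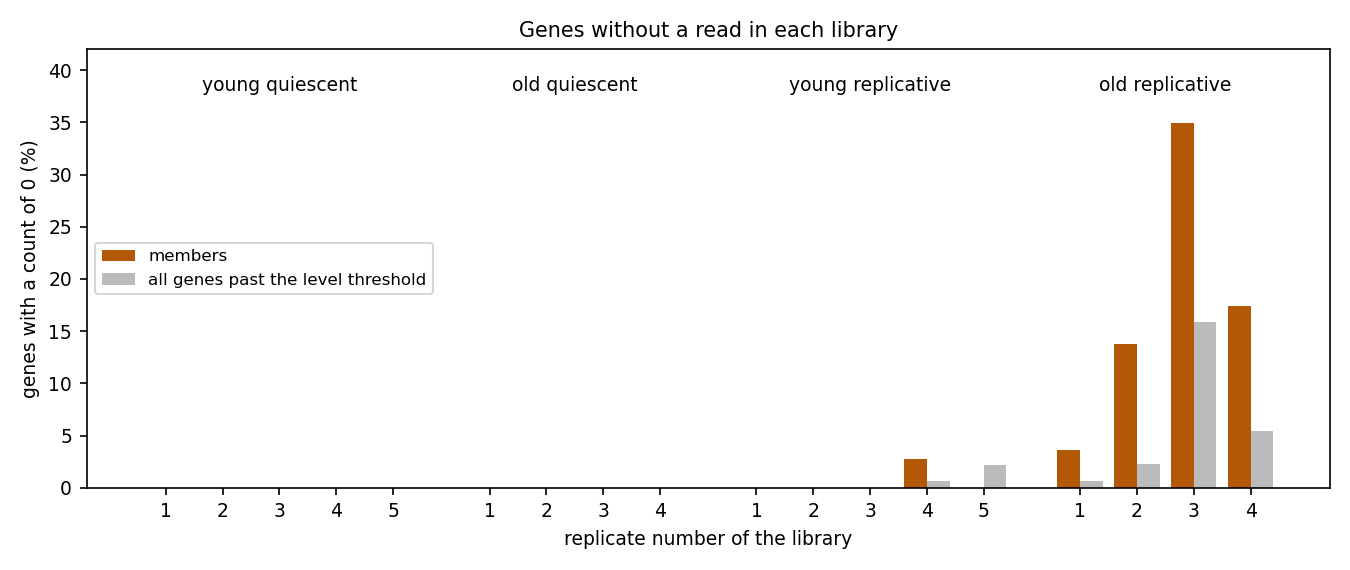
Share of genes with a count of 0 (vertical axis, percent) in each library (horizontal axis, by group and replicate number) for the 109 members and for the 9142 genes past the level threshold. Members reach 34.9% in old replicative replicate 3, and both shares are 0% or close to it in all quiescent libraries, which for young quiescent libraries the level threshold fixes. The choice favours genes with zeros in old replicative libraries.

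The 49 members with reads in all 4 old replicative libraries differed less in that state than the other 60. Their median replicative difference was -1.77, against -2.74 for members with at least 1 zero, while the median quiescent difference was -1.24 in both. Of the 53 members whose replicative difference was larger by at least 1 unit, 11 had no zero and 42 had at least 1. Each zero enters the old replicative mean at the lowest possible log2 value. The division by zeros therefore sets these replicative values in part, and they are a description. Members with zeros had fewer reads to begin with, with a median young quiescent level of 6.36 against 7.25.

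When an old library was left out of the choice, the genes chosen from the other 17 were also low in the library left out. The choice was repeated without each old library in turn. Left-out old quiescent replicates 1 to 4 lay at a median of -0.46, -0.95, -1.46 and -1.56 log2 units from the young quiescent mean over the 162, 124, 79 and 82 genes then chosen. Left-out old replicative replicates 1 to 4 lay at -0.75, -1.54, -3.22 and -1.22 from the young replicative mean over 113, 107, 95 and 108 genes. In all 8 libraries the median was below that of the 9142 genes past the level threshold, which lay between -0.37 and -0.01. At least 77.0% of the chosen genes were below the young mean in each left-out library, against 51.0% to 57.4% of all 9142. The size depended on the library, and the share of chosen genes at -1 or lower was 19.8% in old quiescent replicate 1 and 85.4% in old quiescent replicate 4. The young libraries took part in every one of these choices and also gave the young means used here. Genes chosen for high young values tend to lie below those means through the choice itself, and the 9142 genes were not chosen by age. Each batch gave 1 sample of each state, so the other sample of the same rats also took part in each choice. The values are therefore a description and not a replication.

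**Figure D4:**
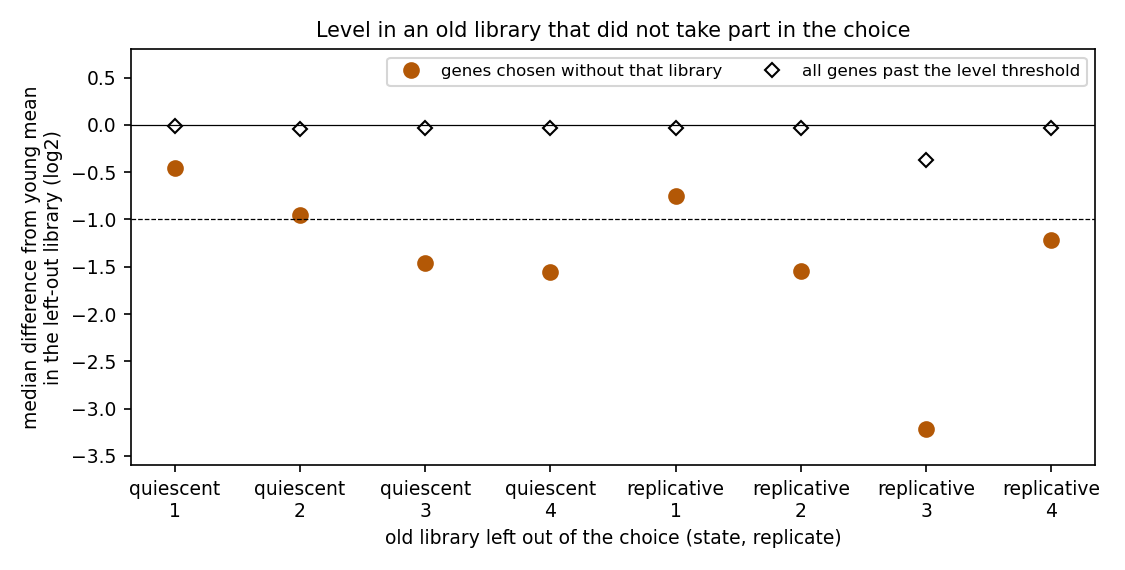
Median difference from the young mean of the same state (vertical axis, log2) in each of the 8 old libraries (horizontal axis) when that library took no part in the choice, for the genes then chosen (filled circles) and for the 9142 genes past the level threshold (diamonds). Circles lie between -3.22 and -0.46 and diamonds between -0.37 and -0.01, and the dashed line is the threshold of -1. The young libraries took part in every choice.

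In quiescent cells all 4 old values lay below all 5 young values for 58 of the 109 members, where the same held for 4.26% of the 14920 genes tested. In replicative cells it held for 22 members, against 3.82% of the genes tested. Because the members were chosen for these differences, nothing is read from either count. For 8 members all 8 old libraries lay below all 10 young ones, against 0.114% of the genes tested. These 8 had mean young quiescent levels from 6.50 to 12.96, quiescent differences from -2.63 to -1.02 and replicative differences from -4.55 to -1.44. The gap between the highest old and the lowest young library was narrow in all 8, from 0.04 to 0.32 log2 units.

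The member with the most reads was one of these 8. Its log2 level was 12.56, 12.91, 12.67, 13.33 and 13.34 in young quiescent replicates 1 to 5 and 12.28, 11.57, 11.51 and 10.81 in old quiescent replicates 1 to 4. It was 12.41, 12.81, 12.54, 13.57 and 13.59 in young replicative replicates 1 to 5 and 11.39, 10.68, 11.50 and 11.00 in old replicative replicates 1 to 4. The old libraries were below the young ones in both states, with old quiescent replicate 1 the closest. In TMM-scaled CPM, the count relative to the size of the library, quiescent cells held 1300 ± 401 when young (SD, n = 5) against 520 ± 203 when old (SD, n = 4). Replicative cells held 1330 ± 553 when young (SD, n = 5) against 347 ± 77.2 when old (SD, n = 4). The edgeR log2 fold change was -1.32 (SE 0.306) in quiescent and -1.94 (SE 0.314) in replicative cells. This gene had reads in all 18 libraries, so its differences do not rest on zeros.

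The largest difference in both states at once, ranked by the smaller of the 2, belonged to ENSRNOG00000039339 and ENSRNOG00000006422. ENSRNOG00000039339 had log2 levels of 6.99, 7.90, 8.16, 7.61 and 7.60 in young quiescent and 5.52, 4.33, 5.04 and 4.70 in old quiescent replicates. In replicative cells it had 6.73, 7.32, 7.24, 7.09 and 9.63 in young and 3.32, 0.00, 8.23 and 0.00 in old replicates. The quiescent groups were well apart, while the old replicative libraries held 10, 0, 137 and 0 reads and the third of them reached the young range. The edgeR log2 fold change was -2.72 (SE 1.17) in quiescent and -1.96 (SE 1.14) in replicative cells, and the latter was -6.53 without old replicative replicate 3. The mean of log2 values, on which the choice rests, gave -4.72 for the same replicative difference.

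ENSRNOG00000006422 was lower in all 8 old libraries than in all 10 young ones. Its log2 levels were 6.92, 8.09, 8.14, 8.85 and 9.02 in young quiescent and 5.71, 6.05, 5.36 and 5.20 in old quiescent replicates. In replicative cells they were 7.01, 8.14, 8.20, 9.44 and 9.46 in young and 4.24, 6.60, 0.00 and 4.74 in old replicates. Replicate 1 was the lowest of the young libraries in both states, and old replicative replicate 3 had no read. The edgeR log2 fold change was -2.75 (SE 0.737) in quiescent and -3.55 (SE 0.767) in replicative cells, from 53.3 ± 28.2 to 7.92 ± 2.06 CPM and from 65.1 ± 41.9 to 5.35 ± 6.46 CPM (SD, n = 5 young and 4 old each).

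**Figure D5:**
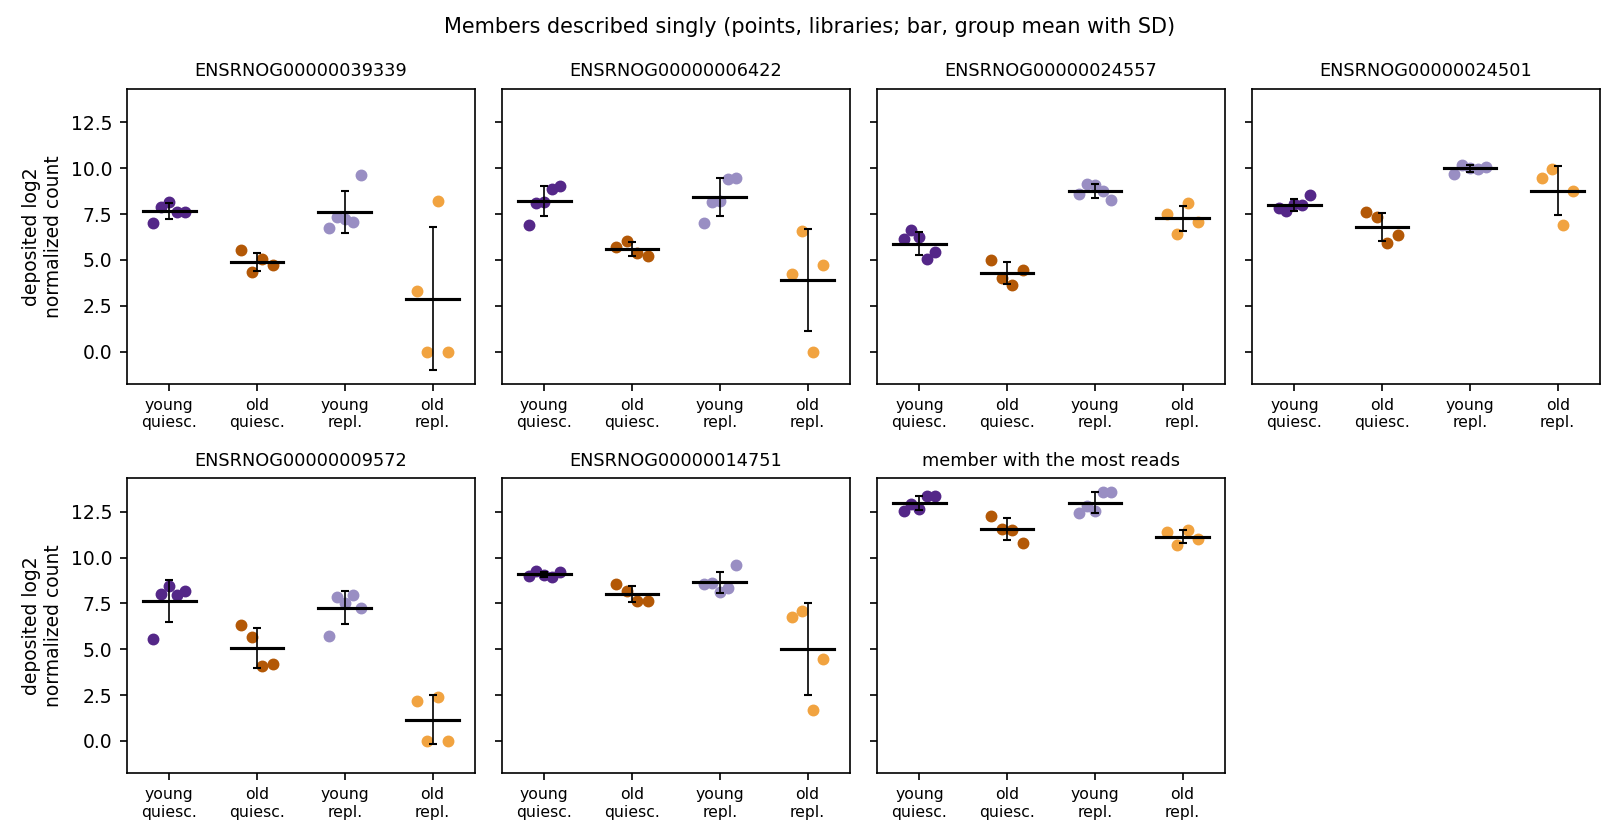
Deposited log2 normalized count (vertical axis) of 6 members given by ID and of the member with the most reads, in young and old quiescent and replicative libraries (horizontal axis); points are libraries and bars are group means with SD. Old groups are below young groups of the same state in every panel, and the old replicative points are the most scattered for ENSRNOG00000039339, which reaches 8.23 in 1 library and 0.00 in 2.

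The number of members that passed a test with age differed between fits. With all 4 groups in 1 model, edgeR's quasi-likelihood test called 0 members lower in old quiescent cells, where 0.0067% of genes tested were called lower. At an unadjusted p under 0.05 it was 25 members, against 2.12% of genes. DESeq2 called 9 members against 0.133% of genes, limma-voom with sample quality weights 84 against 4.60%, and limma-trend 0 against 0.0134%. Fitted on the 9 quiescent libraries alone, edgeR called 36, against 0.957% of genes tested, and 34 of the 36 had groups that did not overlap. In replicative cells the 4-group model called 19 members lower in old cells, against 3.87% of genes tested, and the fit of the 9 replicative libraries alone called 2, against 0.0301%. Without old replicative replicate 3 the 4-group model called 0 in quiescent cells, against 0.0126% of genes, and 19 in replicative cells, against 4.56%. Without old replicative replicate 1 the replicative count was 36, against 9.41% of genes. The median standard deviation of a member over the libraries of a group was 0.46 log2 units in young quiescent, 0.63 in old quiescent, 0.72 in young replicative and 2.74 in old replicative cells. Over the 9142 genes past the level threshold it was 0.28, 0.24, 0.49 and 1.07. These comparisons chose the members, so nothing is read from the counts.

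The scale changed the size of the replicative difference. The median edgeR log2 fold change was -1.14 in quiescent and -1.39 in replicative cells, against -1.24 and -2.32 as differences of mean log2 values. Over all genes tested the edgeR medians were -0.04 and -0.05. All 109 members had an edgeR fold below 0 in quiescent cells. In replicative cells 103 did and 6 did not, the highest of these at 0.30. The edgeR fold was lower by at least 1 in replicative cells for 18 members and in quiescent cells for 12. Whether the age difference itself differed between the states was estimated by the interaction of age and status. It was called for 0 members by the 4-group edgeR model, where 0.0268% of genes tested were called. At an unadjusted p under 0.05 it was 4 members, against 10.1% of genes. DESeq2 called 1 member against 1.42% of genes, limma-voom 0 against 0.0134%, and limma-trend 0 against 0.0%. The interaction is made of the same differences as the choice.

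With replication, members were about evenly split between higher and lower in young cells and mostly lower in old cells, after genes that moved strongly at both ages had been left out by the choice. The replicative-minus-quiescent difference in young cells ran from -2.12 to 2.99 with a median of -0.01, with 52 members above 0 and 57 below, and 1 at -1 or lower. In old cells it ran from -4.17 to 3.00 with a median of -0.88, with 23 above 0 and 86 below, and 52 at -1 or lower. Without old replicative replicate 3 the old median was -0.47 and 32 members were above 0. By edgeR the median log2 fold change was 0.07 in young and -0.05 in old cells, so the old median was only slightly the lower on the scale of mean counts. Over the 9142 genes past the level threshold the medians of the log2 differences were -0.11 in young and -0.42 in old cells.

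In young cells the 4-group edgeR model called 3 members higher and 0 lower in replicative cells, against 2.25% and 0.214% of genes tested. At an unadjusted p under 0.05, 0 members were lower, against 2.69% of genes. DESeq2 called 0 lower against 0.219% of genes, limma-trend 0 against 0.248%, and limma-voom 9 against 8.42%. The fit of the young libraries alone called 8 higher, against 4.81% of genes tested. In old cells the 4-group model called 4 members higher and 5 lower, against 7.16% and 6.60% of genes tested, and all 3 called higher in young cells were among the 4. The lower count was 2 without any one of old quiescent replicates 1 to 4, against 4.64%, 4.54%, 3.68% and 3.84% of genes, and 15 without old replicative replicate 1, against 9.58%. The higher count was 11 without old replicative replicate 3, against 8.76% of genes. Fitted on the old libraries alone, edgeR called no member in either direction, against 4.41% of genes tested, and 6 of 108 members had an unadjusted p under 0.05, against 18.0%.

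A handful of members was both lower with age and higher with replication. For 6 of the 109 the replicative-minus-quiescent difference was at least 1 at both ages. Ranked by the smaller of the old and the young difference in mean log2 values, ENSRNOG00000024557 came first, at 3.00 in old and 2.87 in young cells, just inside the limit of the choice. Another of the 6 had larger edgeR folds at both ages, and the 2 IDs given were picked after their values were seen. Its log2 levels were 6.14, 6.63, 6.23, 5.06 and 5.43 in young quiescent and 8.60, 9.15, 9.07, 8.77 and 8.25 in young replicative replicates. They were 5.00, 4.00, 3.61 and 4.46 in old quiescent and 7.49, 6.42, 8.08 and 7.08 in old replicative replicates. Replicative libraries were above quiescent ones at both ages, and old libraries were below young ones in both states. The edgeR log2 fold change with replication was 2.81 (SE 0.431) in young and 2.92 (SE 0.489) in old cells. With age it was -1.57 (SE 0.456) in quiescent and -1.46 (SE 0.441) in replicative cells. The 4-group model called only the replicative age difference, and 19 of 25 alternative fits did not call it.

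ENSRNOG00000024501 was second by that ranking, although other members had a larger difference at one age. It went from 41.9 ± 12.2 CPM in young quiescent to 157 ± 21.8 CPM with replication (SD, n = 5 each), and from 20.1 ± 9.78 to 86.6 ± 58.6 CPM in old libraries (SD, n = 4 each). In old replicative replicates its log2 level was 9.46, 9.98, 6.89 and 8.78, so replicate 2 reached the young replicative range of 9.69 to 10.19 and replicate 3 lay below old quiescent replicates 1 and 2 at 7.59 and 7.32. The edgeR log2 fold change with replication was 1.91 (SE 0.402) in young and 2.10 (SE 0.455) in old cells. With age it was -1.06 (SE 0.426) in quiescent and -0.86 (SE 0.419) in replicative cells, and the 4-group model called neither.

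Other members were lowest of all in old replicative cells. The 2 with the smallest edgeR p among the 5 called lower in old replicative than old quiescent cells, picked after their values were seen, were ENSRNOG00000009572 and ENSRNOG00000014751. ENSRNOG00000009572 had 111, 74, 10 and 26 reads in old quiescent and 4, 0, 2 and 0 reads in old replicative replicates 1 to 4. In young cells it had 35 to 489 reads per library, and its lowest log2 level there was 5.58 in young quiescent and 5.74 in young replicative cells, both in replicate 1. ENSRNOG00000014751 had log2 levels of 8.57, 8.20, 7.65 and 7.63 in old quiescent and 6.76, 7.08, 1.67 and 4.45 in old replicative replicates, against 8.94 to 9.29 in young quiescent and 8.14 to 9.58 in young replicative libraries. All old replicative values of both genes lay below all their old quiescent values. The edgeR log2 fold change with replication in old cells was -4.65 (SE 0.970) for the first and -2.09 (SE 0.593) for the second. In young cells it was -0.49 (SE 0.663) and -0.38 (SE 0.505), smaller than the error. The 4-group edgeR model did not call the interaction for either. Of 24 alternative fits, 23 did not call it for the first gene and 24 did not for the second.

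Within a group, members did not deviate in common between the 2 states to the same degree in every replicate number. Over the 109 members, the deviations from the group mean in quiescent and replicative libraries of the same number correlated with a Pearson r of 0.26, 0.17, 0.05 and 0.07 for old replicates 1 to 4. For young replicates 1 to 5 it was 0.49, 0.07, 0.26, 0.26 and 0.13. These values are across genes that share libraries and depth, and they describe the libraries.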

How the data were processed

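Sorted islet cells gave 18 libraries, prepared with a strand-keeping kit for total RNA, per the labels' protocols. The authors deposited raw counts for 27654 Ensembl IDs and a matching table of log2 values. The deposited log2 values equal the log2 of 1 plus the count after scaling by DESeq-style size factors, recomputed to within 5.3e-14. STAR, DESeq2 and rn6 stand in the submitters' processing notes without roles; no source used here names the counting program, its annotation or its strand setting, so overlapping and near-identical genes are uncertain. No column was unused.

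Members came from the log2 table. Counts were tested with edgeR 4.0.16 in R 4.3.3: filterByExpr by group (minimum count 10, total 15; 14920 genes kept), TMM scaling, a model of 4 group means with robust quasi-likelihood F tests, and Benjamini-Hochberg adjustment over all genes tested (threshold 0.05). SE is the fold change over the square root of F. The unit behind each p is a library from pooled rats, and no batch held both ages. The edgeR fits of age were checked on simulated counts with the same spread in every gene and group. That check does not cover the larger spread of the old replicative libraries. Alternatives used DESeq2 1.42.0, limma 3.58.1, RLE factors, no filter, the 2 groups compared alone, the replicate number as a block, other rule thresholds, and each library left out.

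The members and lists were chosen with earlier results of these data known. The reference table has 47357 genes, 0 with an Ensembl ID, so 0 IDs were matched to names; the 26 gene lists, cell type markers and promoter motifs were not run and no sequence is shown. The rule for named genes reduced to the 2 IDs with the largest difference in both states. At most 2 IDs per direction of the replication comparison were added after their values were seen.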

Additional observations from a re-analysis of the deposited data

Results flagged for a closer look

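The median log2 level of the members in old replicative cells had 1 low library, replicate 3 at 2.42, where the other 3 lay between 5.64 and 6.13. The gap to the nearest library was 0.868 of the range of the group, above Dixon's 95% critical value of 0.829 for 4 libraries. The choice asked for a low old replicative mean, so it favours genes that are low in replicate 3. Without replicate 3, 23 of the 109 members lay above the replicative threshold of -1. The flag is therefore a description and not a test. Over the genes past the level threshold the median was 7.81 in replicate 3 and 7.93 to 7.97 in the other 3. The same library had 38 of 109 members and 15.9% of the genes past the level threshold at 0 counts. The part of these zeros in the low median was not tested.

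ENSRNOG00000009572 had 1 low value among the young quiescent libraries, 5.58 in replicate 1, with a gap of 0.828 of the range against a critical value of 0.710 for 5 libraries. ENSRNOG00000039339 had 1 high value among the young replicative libraries, 9.63 in replicate 5, with a gap of 0.795 of the range. Among 32 groups of values examined in this way, chance flags about 1 in 20. This rate does not allow for the choice of members by their values.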

How the results depend on the processing

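The number of members was 24 with age differences of at most -1.5, 54 and 194 with a lowest young quiescent value of at least 6 and 4, and 79 to 162 when single libraries were left out, highest without old quiescent replicate 1. TMM scaling gave 98 genes, 88 of them members, and group medians in place of means gave 100, of which 70 were members. The old-minus-young difference of the members' library medians was -1.38 in quiescent and -2.11 in replicative cells, with ranges of -1.59 to -1.24 and -2.49 to -1.25 over left-out libraries; the last is without old replicative replicate 3.

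Each count of members called is given with the percent of all genes that the same fit called in that direction. Lower in old quiescent cells were 9 in DESeq2 (0.133%), 84 in limma-voom (4.60%), 36 in the 2-group fit (0.957%), and 0 to 4 over left-out libraries, with 1 (0.013%) and 4 (0.0378%) without old replicative replicates 2 and 4. Lower in old replicative cells were 37 in DESeq2 (5.58%), 42 in limma-trend (7.29%), 1 in limma-voom (0.0335%), 2 in the 2-group fit (0.0301%), and 12 (2.54%, without young replicative replicate 3) to 36 (9.41%) over left-out libraries. With replication in old cells, members lower were 3 with RLE factors (5.36%), 0 in limma-voom (1.49%), 0 in the 2-group fit (1.18%), and 2 to 15 (at most 9.58%) over left-out libraries; they were 3 without any one young quiescent library or without young replicative replicate 1, 2 or 3. Members higher were 11 in DESeq2 (7.72%), 2 in limma-trend (5.36%), 0 in the 2-group fit (3.22%), and 3 (3.56%) to 11 (8.76%) over left-out libraries. In young cells limma-voom called 9 lower (8.42%) and 12 higher (11.4%) and the 2-group fit 8 higher (4.81%); left-out libraries gave 0 lower and 3 to 4 higher (at most 2.94%). The interaction count was 1 in DESeq2 (1.42%) and 0 to 4 over left-out libraries, the highest without old replicative replicate 1 (1.48%). The cause of these changes was not tested.

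With the replicate number as a block in the 4-group model, 0 (0.0268%) and 15 (2.63%) members were called lower with age in quiescent and replicative cells, 5 lower (7.82%) and 4 higher (5.86%) with replication in old cells, 0 lower (0.389%) and 3 higher (2.10%) in young cells, and 0 (0.0067%) for the interaction. With the replicate block in the 2-group fits the replication counts were 0 lower (1.07%) and 0 higher (2.79%) in old and 1 lower (3.24%) and 9 higher (5.25%) in young cells. Over the genes tested, same-numbered quiescent and replicative libraries had correlated deviations of 0.0714 at the lowest and 0.506 at the highest. Each quiescent library was closest to the replicative library of its own number, a hint from the data that numbers mark batches. Over the members alone, old replicates 2 and 3 and young replicate 2 were closest to another number. Counts under 10 reads limit the folds in old replicative libraries.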
